A study of Rattus norvegicus with 12 samples.

Results

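Described here are 9 collagen chains (Col1a1, Col1a2, Col3a1, Col4a1, Col5a1, Col5a2, Col12a1, Col15a1 and Col18a1) and Lox, the enzyme that cross-links collagen, in left ventricles of rats. Total RNA of 6 exercised samples, taken after 7 weeks of treadmill running, and of 6 sedentary samples was each read on an array of its own, with a single channel. Samples are named by group and label number (exercised 1, 4, 5, 7, 8 and 9, sedentary 13, 16, 17, 21, 23 and 24). The labels give no strain, sex, age or running schedule, and whether every label number stands for its own rat is not stated, so p-values reflect how far these samples vary, and that variation may be partly technical. Members were taken as every probe set whose annotation names exactly 1 of the 10 genes, which gave 15 of 8740 probe sets and 8 of 4736 genes that a probe set names alone: 4 each for Col1a1 and Lox, 2 for Col3a1, and 1 each for Col1a2, Col5a1, Col5a2, Col12a1 and Col15a1. Col4a1 and Col18a1, chains of the basement membrane, had no such probe set and are not analysed here. Of the 15 probe sets, 13 were bright enough to be tested (7 genes), and the Col12a1 probe set and 1 of Lox were too dim.

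Collagen is the main structural protein of the extracellular matrix of the heart. Fibrillar collagen of type I, built of Col1a1 and Col1a2 chains, gives the ventricle its stiffness, type III, built of Col3a1, forms thinner and more compliant fibrils, and type V, of Col5a1 and Col5a2, starts fibril assembly and sets fibril width. Cardiac fibroblasts make most of it, and Lox oxidises lysine residues so that neighbouring molecules become covalently linked.

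Among the members with a promoter in the RefSeq table (assembly GRCr8), Col1a2 is shown because it alone held a match to the motifs below. Col5a2 is shown because it had the smallest p-value of the comparison below. The 250 bases before each annotated start were searched on both strands for CCAAT (reverse complement ATTGG) and TATAAA (reverse complement TTTATA), which are short promoter motifs and do not overlap each other. Capitals mark the matches. The Col1a2 stretch lies at chr4:33518326-33518425 on the plus strand, -231 to -132 from the start, and was placed to hold its matches. The Col5a2 stretch lies at chr9:55090152-55090251 on the minus strand, -100 to -1, and holds no match.
Col1a2: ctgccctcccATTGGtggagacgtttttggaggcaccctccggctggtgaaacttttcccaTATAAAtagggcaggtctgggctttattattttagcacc
Col5a2: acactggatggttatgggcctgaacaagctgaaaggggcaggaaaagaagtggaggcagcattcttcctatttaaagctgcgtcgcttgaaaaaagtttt
Col1a2 held a CCAAT match at -221 to -217 on the minus strand and a TATAAA match at -170 to -165 on the plus strand, while the other 3 genes found there (Col5a1, Col5a2 and Col15a1) held neither word in their 250 bases. Of 33469 promoters in the table, 34% hold CCAAT and 12.9% hold TATAAA in the same window, so the words are common, and the probe values do not bear on the sites. In the same assembly Col3a1 and Col5a2 are direct neighbours on chromosome 9, with 0 annotated genes between them.

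The comparison asks whether collagen transcripts of the ventricle differ after training. Most fibrillar collagen probe sets had higher means in exercised than in sedentary samples, yet no collagen or Lox probe set passed the test, and the means owed much to 2 arrays. Exercised 4 was the highest of the 12 arrays for 7 of the 9 fibrillar probe sets, and sedentary 24 was far below the others for Col5a1 and Col1a2. Each difference is the exercised minus the sedentary mean of log2(intensity + 363), a scale on which dim probe sets show too small a change. Intensities are linear, with n = 6 per group. In bulk tissue, fewer cells of a type and less RNA per cell cannot be told apart.

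At an adjusted p of 0.05 (limma, Benjamini-Hochberg over all 6555 tested probe sets), 0 of the 13 passed, against 0.32% of all tested probe sets, with 0.275% higher and 0.0458% lower. At an unadjusted p under 0.05 there were 2 of 13, both higher, against a background of 16.2% in either direction, 9.26% higher and 6.91% lower. An exact permutation test over the 924 assignments of the arrays, two-sided, gave the same number of members under 0.05, 2 of 13, with a background of 17.6%, and 0 of all probe sets after adjustment. The groups overlapped for each of the 13, against 2.07% of all tested probe sets without overlap (1.5% with the exercised arrays above and 0.58% with them below). The shares at an unadjusted or permutation p under 0.05 in either direction lie near the background. By sign 11 of the 13 were higher, against 51.4% of all tested probe sets, and their median difference was 0.18, against 0.00 for all tested probe sets. The members' median was 0.087 without exercised 4, 0.092 without sedentary 24 and 0.092 over all 15 probe sets with no filter. The 13 share genes and arrays, so the signs are not independent of each other.

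**Figure D1:**
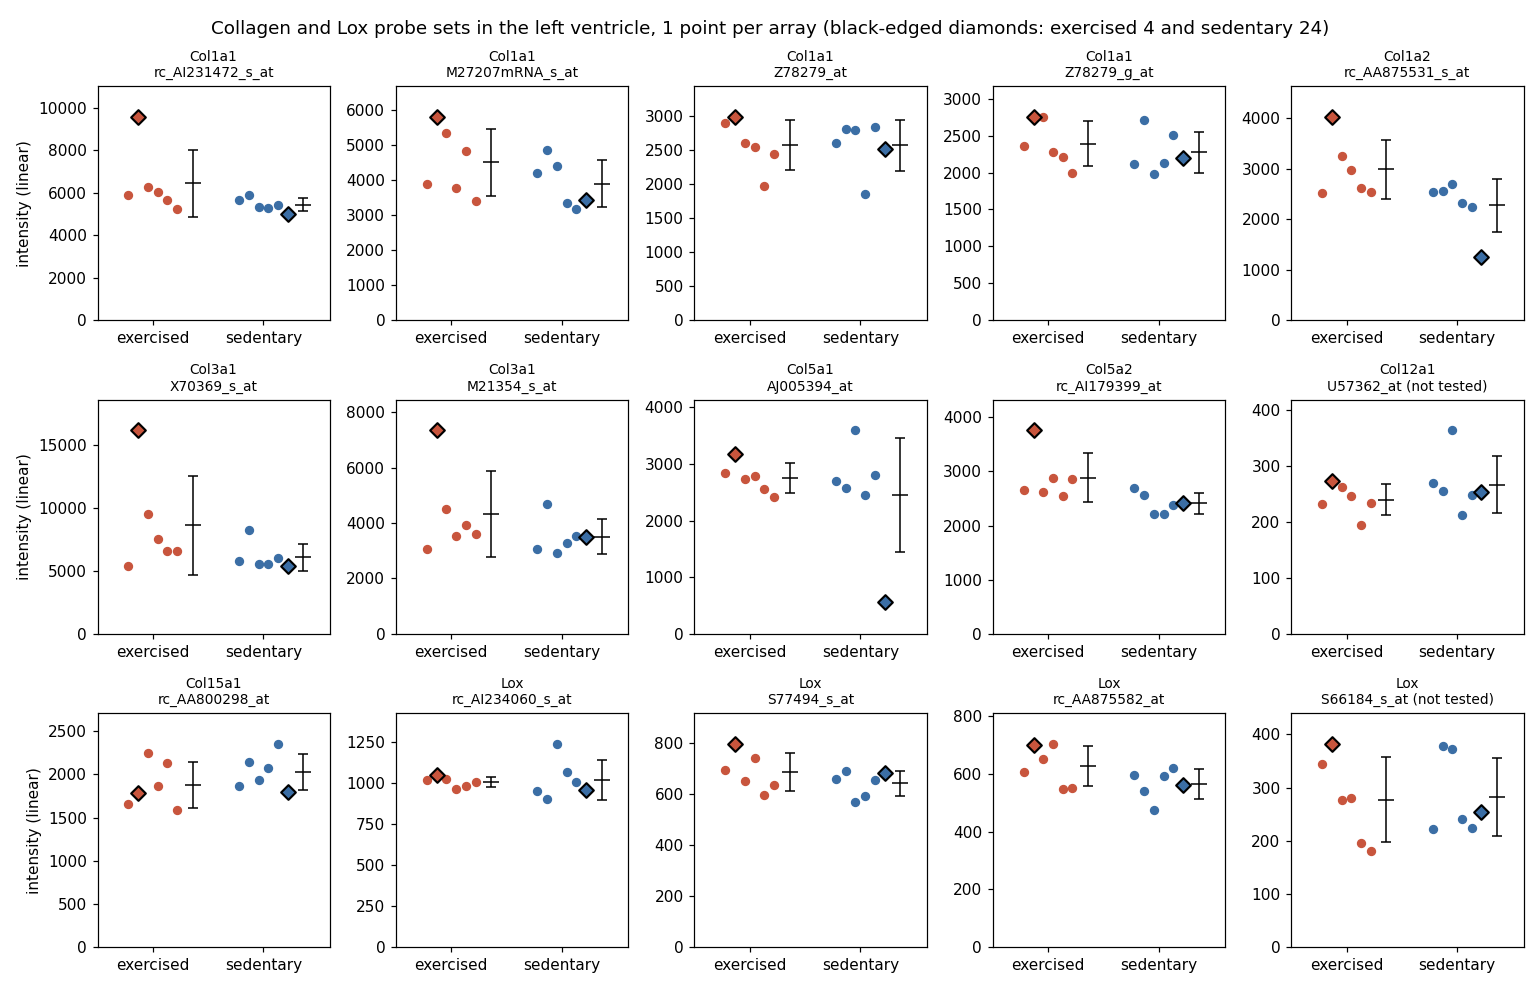
Linear intensity (y axis, from 0) of each of the 15 collagen and Lox probe sets in exercised (left) and sedentary (right) samples, with 1 point per array and the mean ± SD beside each group. Black-edged diamonds are exercised 4, at 16171 for Col3a1 X70369_s_at, and sedentary 24, at 570 for Col5a1.

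Col3a1, the chain of type III collagen, had the largest difference of the members. On X70369_s_at its intensity ran from 5370 over a median of 7076 to 16171 in exercised samples, against 5425, 5691 and 8244 in sedentary ones. Exercised 4 stood at 16171 and exercised 5 at 9526, whereas exercised 1, at 5370, was lower than every sedentary array. The means were 8631 ± 3945 in exercised and 6102 ± 1074 in sedentary samples (SD), a difference of 0.40 ± 0.20 (SE, 95% interval -0.04 to 0.83, limma adjusted p = 0.356, exact permutation p = 0.110). Without exercised 4 the difference was 0.20. The dimmer probe set M21354_s_at had 7345 on exercised 4 and 3071 to 4510 on the other exercised arrays, against 2932 to 4689 in sedentary samples. Its difference of 0.24 ± 0.16 (limma adjusted p = 0.479) was 0.087 without exercised 4. Of the 6555 tested probe sets, 5 stood as far above the median of the other exercised arrays on exercised 4 as Col3a1 X70369_s_at did. These 5 include that probe set itself.

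Col1a1, the major chain of type I collagen, was measured by 4 probe sets that did not give the same difference. On rc_AI231472_s_at the exercised intensities ran from 5257 over a median of 5949 to 9570, against 4995, 5394 and 5896 in sedentary samples. Exercised 4 was the array at 9570, and the other 5 exercised arrays lay between 5257 and 6278, within or just above the sedentary range. The difference was 0.21 ± 0.11 (SE, limma adjusted p = 0.374, exact permutation p = 0.0628), and 0.091 without exercised 4. M27207mRNA_s_at gave 0.18 ± 0.13, and 0.11 without exercised 4. Its exercised arrays 4, 5 and 8, at 5798, 5327 and 4820, were apart from the other exercised arrays, at 3411 to 3891, and sedentary samples spanned 3167 to 4847. The probe sets Z78279_at and Z78279_g_at, which bear the accession of the same record, gave 0.00 ± 0.10 and 0.06 ± 0.082. Means on Z78279_at were 2576 ± 363 in exercised and 2572 ± 374 in sedentary samples.

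Col1a2, the partner chain in type I collagen, had 1 probe set (rc_AA875531_s_at). Its intensity ran from 2530 over a median of 2796 to 4034 in exercised samples, against 1258, 2441 and 2706 in sedentary ones. Exercised 4 was again highest, and sedentary 24, at 1258, was lowest by a wide gap, the other sedentary arrays being at 2250 to 2706. The difference was 0.36 ± 0.15 (SE, 95% interval 0.04 to 0.67, limma adjusted p = 0.244, exact permutation p = 0.0346). The difference was 0.22 without sedentary 24 (limma adjusted p = 0.321) and 0.28 without exercised 4 (limma adjusted p = 0.404). Without both, a pair chosen after seeing the data, it was 0.14 (limma adjusted p = 0.457). All 6 exercised arrays were above the sedentary mean, and 3 were above the highest sedentary array.

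Col5a1 and Col5a2, the chains of type V collagen, differed in how their arrays lay. Col5a1 (AJ005394_at) ran from 2417 over a median of 2769 to 3177 in exercised samples, against 570, 2635 and 3598 in sedentary ones. The value of 570 was that of sedentary 24, and the other 5 sedentary arrays, at 2461 to 3598, covered the exercised range but for its lowest value. With all arrays the difference was 0.27 ± 0.26 (95% interval -0.29 to 0.82, limma adjusted p = 0.617, exact permutation p = 0.610), and without sedentary 24 it was -0.026. No other tested probe set was as far below the median of the other sedentary arrays on sedentary 24 (1 of 6555, Col5a1 itself, and 16 for the drop of Col1a2).

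Col5a2 (rc_AI179399_at) had the smallest p-values among the members. Its intensity ran from 2554 over a median of 2759 to 3761 in exercised samples, against 2205, 2398 and 2702 in sedentary ones. Exercised 4 was the array at 3761, 3 exercised arrays were above the highest sedentary one, and all 6 were above the sedentary mean. The difference was 0.22 ± 0.080 (SE, 95% interval 0.05 to 0.39, limma adjusted p = 0.192, exact permutation p = 0.0152). Leaving out each array in turn kept it between 0.15 and 0.25, with an unadjusted limma p under 0.05 in 12 of 12 fits and the largest, 0.0354, without sedentary 21. Without exercised 4 it was 0.15 ± 0.058, and it did not pass after adjustment in any of these fits (lowest adjusted p = 0.132). Of the members, Col5a2 was the only one under 0.05 in each of the 12 fits, and Col1a2 was in 10. The 12 fits share most of their arrays, and Col5a2 already had the smallest p with all arrays, so these counts are not independent support. With all arrays 16.2% of all tested probe sets had an unadjusted limma p under 0.05, and their share in every fit was not counted.

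**Figure D2:**
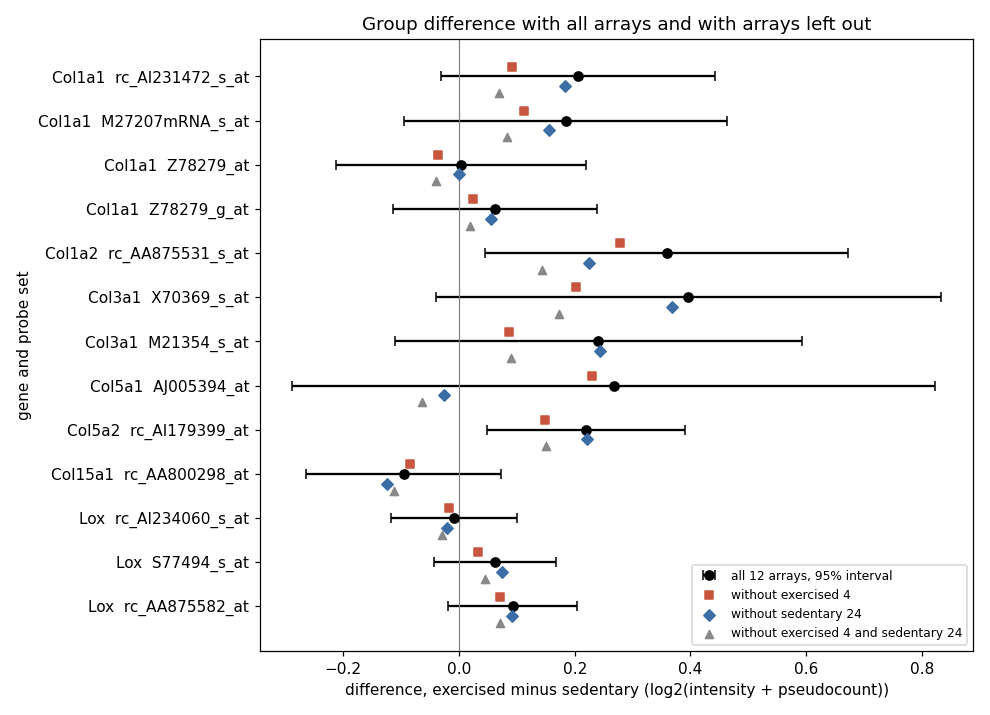
Difference between the groups (x axis, exercised minus sedentary, log2(intensity + pseudocount)) for the 13 tested probe sets (y axis), with its 95% interval from limma and the value after leaving out exercised 4, sedentary 24 or both. Col3a1 and Col1a1 move towards 0 without exercised 4, Col5a1 passes to -0.026 without sedentary 24, and Col5a2 is 0.15 without exercised 4.

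Col15a1, a collagen of the basement membrane zone that anchors muscle cells and small vessels, was lower by sign. It ran from 1588 over a median of 1822 to 2253 in exercised samples, against 1795, 2004 and 2356 in sedentary ones, and the groups overlapped through most of their range. The difference was -0.095 ± 0.079 (95% interval -0.26 to 0.07, limma adjusted p = 0.556), and exercised 4, at 1782, was not high here. Col12a1, which decorates the surface of fibrils, was dim at 240 ± 27.9 in exercised and 267 ± 51.3 in sedentary samples and was not tested.

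Lox differed little on any probe set. On rc_AI234060_s_at its intensity was 1010 ± 31.1 in exercised and 1022 ± 121 in sedentary samples, a difference of -0.0086 ± 0.051 (95% interval -0.12 to 0.10, limma adjusted p = 0.946). The wider spread in sedentary samples came with sedentary 17, at 1242, without which the difference was 0.035. S77494_s_at and rc_AA875582_at gave 0.063 ± 0.049 and 0.092 ± 0.052, with adjusted p of 0.533 and 0.389. The fourth probe set, S66184_s_at, was dim at 277 ± 79.3 in exercised and 282 ± 73.2 in sedentary samples. The intervals of the 3 tested Lox probe sets end at 0.10, 0.17 and 0.20 on their upper side.

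The arrays were then compared over the members together, as a description. Averaged over the 9 fibrillar probe sets and centred on the 12 arrays, log2 values were 0.55 on exercised 4, 0.20 on exercised 5 and -0.08 to 0.04 on the other 4 exercised arrays, against -0.39 on sedentary 24, -0.20 on sedentary 21, 0.12 on sedentary 16 and -0.07 to -0.05 on the other 3 sedentary arrays. The groups overlapped, with sedentary 16 above 4 of the 6 exercised arrays. The difference between the group means of this average was 0.22 with all arrays, 0.13 without exercised 4, 0.16 without sedentary 24 and 0.069 without both. The difference between the group medians was 0.070. Exercised 4 was the highest array for 7.84% of all tested probe sets and sedentary 24 the lowest for 7.09%, so neither was extreme across the whole array as often as among the fibrillar collagens. Among the 13 members an exercised array lay apart by Dixon's gap test for 2 and a sedentary array for 4, against 4.3% and 20.5% of all tested probe sets. Sedentary 17 was often extreme, being the highest array for 27.8% and the lowest for 27.7% of tested probe sets. It was the lowest for 5 of the 13 members, and without sedentary 16 and 17 none of the 13 passed.

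**Figure D3:**
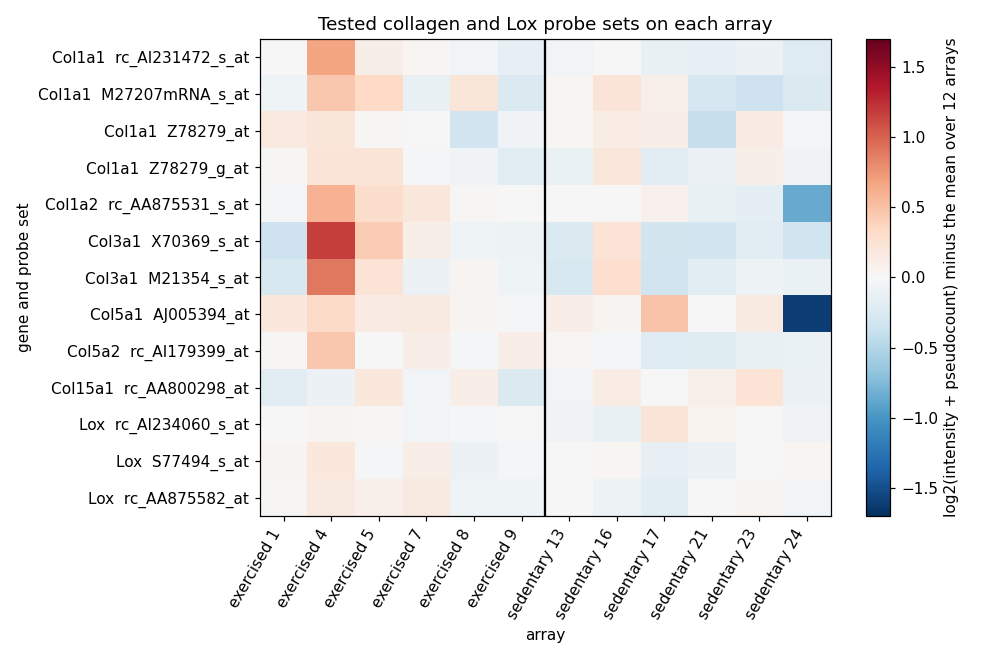
Each tested collagen and Lox probe set (rows) on each array (columns, exercised left of the line, sedentary right), as log2(intensity + pseudocount) minus the mean of the 12 arrays. The dark red cells are Col3a1 on exercised 4 and the deepest blue ones are Col5a1 and Col1a2 on sedentary 24.

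With the group means removed, the same arrays were high for Col3a1 and Col1a1. Over the 12 arrays the 2 brightest probe sets of these genes gave Pearson r = 0.902 (permutation p = 0.00301, adjusted over 16 relations 0.0241) and Spearman rho = 0.909 (p = 0.00019, adjusted 0.00304), and r = 0.585 without exercised 4 and sedentary 16, the arrays farthest from the median of Col3a1. Col1a2 against Col3a1 gave r = 0.628 (p = 0.00789, adjusted 0.0316) and rho = 0.790 (p = 0.00217, adjusted 0.0174), and r = 0.421 without those arrays. Col5a2 against Col3a1 gave r = 0.754 (p = 0.0388, adjusted 0.0887) and rho = 0.448 (p = 0.189, adjusted 0.233), and the relation rests on those arrays, since r was 0.144 without them. Col5a1 against Col3a1 gave r = 0.194 (permutation p = 0.236, adjusted 0.315) and rho = 0.510 (p = 0.046, adjusted 0.105), and r = 0.108 without those arrays. Col15a1 against Col3a1 gave r = 0.242 (permutation p = 0.566, adjusted 0.604) and rho = 0.497 (p = 0.139, adjusted 0.202), and r = 0.598 without those arrays. Lox against Col3a1 gave r = -0.0489 (permutation p = 0.802) and rho = -0.0839 (p = 0.767). Permutations were made within groups. The labels give no batch, so no value within batches could be had.

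The probe sets of a gene followed each other to different degrees. Those of Col3a1 gave r = 0.955 (permutation p = 0.00078, adjusted 0.0125) and rho = 0.741 (p = 0.0135, adjusted 0.0721), and r = 0.788 without exercised 4 and sedentary 16. The 6 pairs of Col1a1 probe sets had r of 0.278 to 0.665, of which 2 passed after adjustment, and no rho among them passed. For Lox, S77494_s_at and rc_AA875582_at gave r = 0.701 (permutation p = 0.0225, adjusted 0.0601), and r = 0.552 without exercised 8 and 4. The third tested Lox probe set, rc_AI234060_s_at, gave r = -0.454 and -0.315 with them (permutation p = 0.0807 and 0.312), neither of which passed, and -0.115 and 0.0797 without sedentary 17 and 16.

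**Figure D4:**
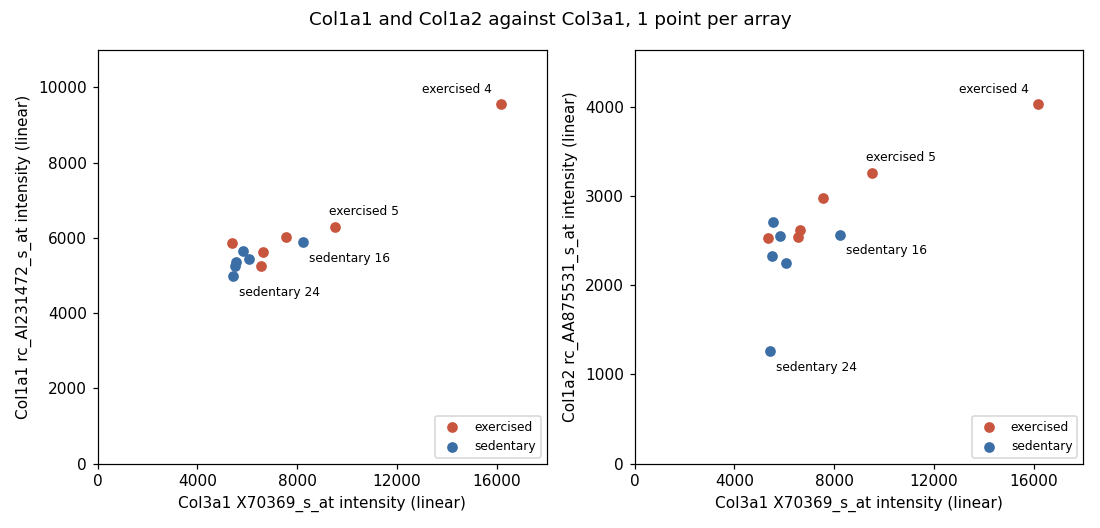
Intensity of Col1a1 rc_AI231472_s_at (left) and Col1a2 rc_AA875531_s_at (right) against Col3a1 X70369_s_at, linear axes from 0, with 1 point per array. Exercised 4 is at the upper right of both panels, and sedentary 24 is low for Col1a2 at 1258 but not set apart for Col1a1.

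Of 5364 probe sets naming 1 other gene, those whose values came closest to the mean of the Col1a1, Col1a2 and Col3a1 probe sets, with group means removed, belonged to Bgn, Cyp1b1, Fstl1, Ggcx and Apoe, with Pearson r of 0.856 to 0.897 over the 12 arrays. Bgn encodes biglycan, a small proteoglycan that binds collagen fibrils, and had the largest r (0.897, Spearman rho 0.720). Cyp1b1 is a cytochrome P450, Fstl1 a secreted glycoprotein, Ggcx the vitamin K-dependent carboxylase and Apoe a lipoprotein component. Without exercised 4 and sedentary 16 their r lay between 0.515 for Ggcx and 0.755 for Apoe. These 5 were picked as the largest of many, so no p is given.

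No other listed gene of the collagen pathway passed the test. Of 10 tested genes of collagen processing and cross-linking 0 passed, 7 were higher by sign and 3 lower, and the median difference was 0.06. Plod2, which hydroxylates lysine in collagen, gave 0.17 ± 0.045 (limma adjusted p = 0.101), and P4hb, a subunit of prolyl hydroxylase and a disulfide isomerase, gave 0.24 ± 0.075 (0.150), each higher than the sedentary mean on 6 of 6 exercised arrays. The other P4hb probe sets gave -0.13 and 0.23. Pcolce, which enhances cleavage of procollagen, gave 0.076 ± 0.043 (0.390).

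Of 10 fibril-associated proteoglycans and glycoproteins, 0 passed, 4 being higher by sign and 6 lower, and the median was -0.02. Bgn gave 0.31 ± 0.090 on U17834_at, the brighter probe set (3791 ± 725 in exercised and 2945 in sedentary samples on average, adjusted p = 0.110), and 0.42 on the other. The matrix glycoprotein Sparc gave -0.21 ± 0.068 (0.159) on its brightest probe set, with -0.15 to 0.09 on the others, and fibronectin, Fn1, gave -0.088 ± 0.044 (0.344), with -0.07 to 0.25 on the others. Among 15 genes of collagen breakdown 0 passed, 11 being higher by sign and 4 lower, and the median was 0.02. The lysosomal protease Ctsl gave 0.16 ± 0.052 (0.151), the metalloproteinase inhibitor Timp2 0.27 ± 0.097 (0.186) and the plasminogen activator Plat 0.17 ± 0.082 (0.331).

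The 5 tested collagen receptors had a median of -0.02, led by Cd44 (-0.066 ± 0.035, limma adjusted p = 0.370), the integrin Itga1 (0.18 ± 0.12, 0.452) and its partner Itgb1 (0.071 ± 0.062, 0.579). The 7 basement membrane genes had a median of 0.05, with Nid1 at 0.056, Lamc1 at 0.065 and Lamb2 at -0.074. The 16 regulators of collagen genes had a median of 0.00, with Ltbp1, which stores latent TGF-beta in the matrix, at 0.21 ± 0.075 (0.182), angiotensinogen, Agt, at -0.23 ± 0.080 (0.182) and Smad4 at -0.092 ± 0.055 (0.414). None of these 3 lists had a gene past the threshold. Of the 6 other tested collagens on the list used, 2 were higher by sign and 4 lower, and 0 passed. Their median was -0.08, with Col9a1 at -0.25 ± 0.098 (0.225), Colq at -0.089 ± 0.064 (0.498) and Col4a5, a basement membrane chain, at 0.052 ± 0.042 (0.552). Col26a1, tested but not on that list, gave -0.020 (limma adjusted p = 0.884).

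Markers of cell types were read on the same arrays. The cardiomyocyte markers (10 of 12 tested, 8 higher and 2 lower by sign, 0 past the threshold) had summed intensities of 392210 to 422124 in exercised and 379336 to 429858 in sedentary samples, and none of the markers of any list was at 0. The 10 tested fibroblast markers of 16, of which 3 stand in other lists too, included 7 higher by sign and 3 lower, with 0 past the threshold and a median of 0.09. Mgp, a matrix calcification inhibitor, gave 0.41 ± 0.11 (limma adjusted p = 0.101), S100a4 0.36 ± 0.13 (0.182) and Pdgfra, a receptor of fibroblasts, 0.28 ± 0.11 (0.226) with -0.07 on its other probe set. The summed fibroblast markers ran from 45204 to 59054 in exercised and 34557 to 49262 in sedentary samples. They were highest on exercised 4 and 5 (59054 and 55970) and lowest on sedentary 23 and 24 (34557 and 38024). Mgp alone averaged 20586 ± 2799 in exercised and 15534 ± 2666 in sedentary samples (SD), so it weighs heavily in the sums. The part of the fibroblast markers in the collagen values was not tested.

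The 3 erythroid markers were lower by sign with 0 past the threshold. Their sum was low on exercised 4 and 5, the 2 arrays highest in the fibrillar average. It was 20123 for exercised 4 and 13476 for exercised 5, the other exercised arrays having 32959 to 38361 and the sedentary arrays 37211 to 42376. Most of each sum was Hbb, at 15784 on exercised 4 and 8786 on exercised 5. Hbb was at 28362 to 33321 on the other exercised arrays and 31533 to 37795 on the sedentary ones. The sums therefore mostly follow Hbb, and the values of Alas2 and Slc4a1 on single arrays are not given here. The part of the erythroid markers in the collagen values was not tested. The 6 smooth muscle markers were all higher by sign, with 0 past the threshold, and summed to 20549 to 25867 in exercised and 18541 to 21119 in sedentary samples. The smallest p among them was that of Actg2 (0.17 ± 0.040, limma adjusted p = 0.0729). Acta2 gave 0.34 on its brightest probe set, the one counted here, and -0.05 and 0.06 on its others. Of 7 macrophage markers Lyz2 rose (0.997 ± 0.18, limma adjusted p = 0.0404), 3 were higher and 4 lower by sign, and the median difference was -0.01. The list summed to 24549 on exercised 4, 18512 to 21434 on the other exercised arrays and 17000 to 19247 on sedentary ones. Lyz2 alone averaged 5421 ± 2104 in exercised and 2401 ± 297 in sedentary samples (SD), so the sums do not show a rise across the list. The 6 endothelial markers, 2 higher and 4 lower by sign with 0 past the threshold, summed to 7435 to 8103 in exercised and 7637 to 8979 in sedentary samples. Of the 4 atrial markers 2 were higher and 2 lower by sign, and 0 passed. They summed to 43734 on exercised 4 and 24360 to 33253 on the other exercised arrays, against 51177.5 on sedentary 16 and 22481 to 27152 on the other sedentary arrays. Myl7 and Myl4 averaged 1386 ± 78.6 and 849 ± 41.4 in exercised samples, against 2575 ± 2991 and 1165 ± 484 in sedentary ones (SD). Given their narrow exercised spread, the high sum on exercised 4 did not come from these 2 genes. Exercised 4 and sedentary 16, highest of their groups for the atrial sum, were also highest for Col3a1 X70369_s_at. The part of the atrial markers in the collagen values was not tested. Without exercised 4 and 5 the Col3a1 X70369_s_at difference was 0.096, that of Col1a2 0.23 and that of Col5a2 0.16.

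**Figure D5:**
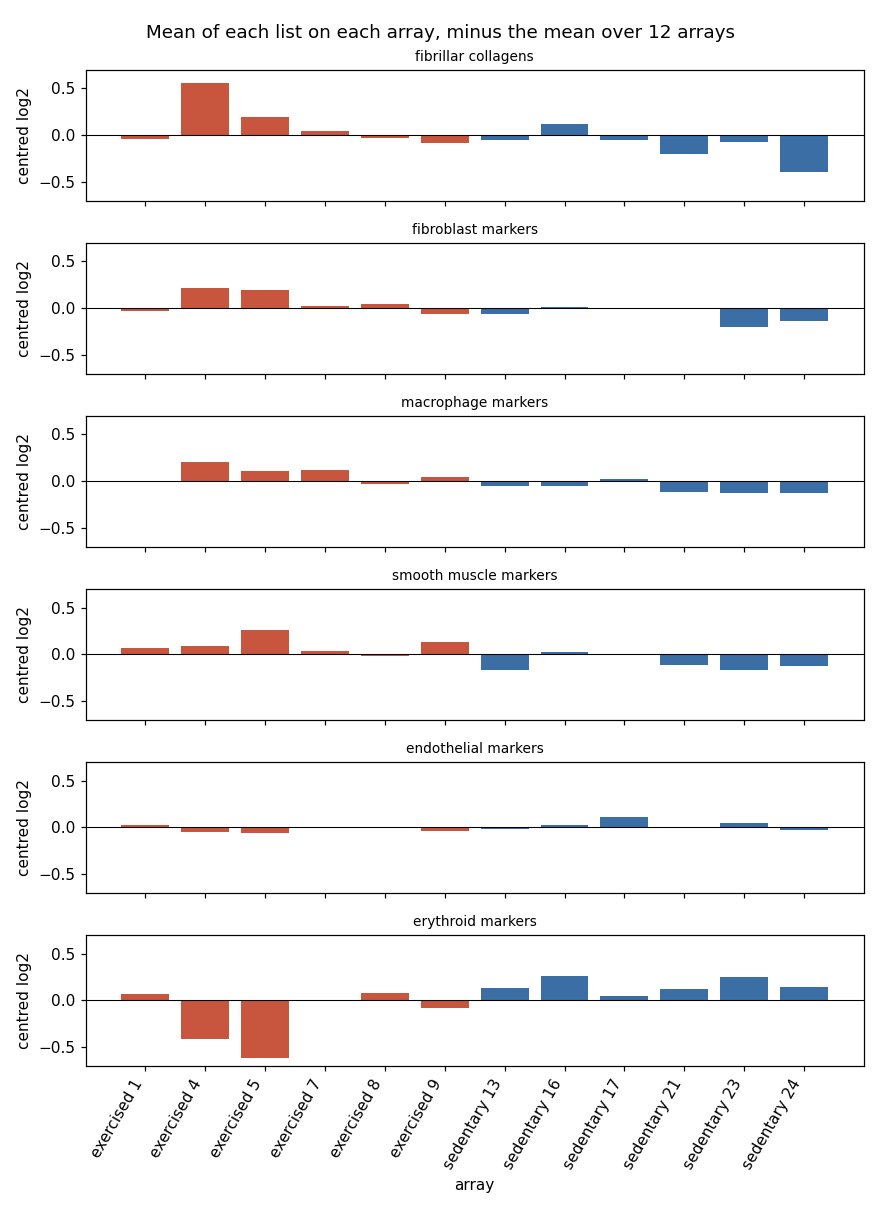
Mean of the fibrillar collagen probe sets and of 5 marker lists on each array, as log2 minus the mean over the 12 arrays (y axis), with exercised arrays in red on the left and sedentary arrays in blue on the right. Exercised 4 is high for fibrillar collagens at 0.55, for fibroblast markers at 0.22 and for macrophage markers at 0.21. The mean of the erythroid markers, which include Hbb, is low on exercised 4 and 5 at -0.42 and -0.62.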

How the data were processed

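The intensity per probe set was used as deposited, on a linear scale. The sources used here do not state the array software, background correction or scaling. Array medians lay between 840 and 875, so the deposited scaling was kept. The number of arrays limits the precision.

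The test was limma 3.58.1 (R 4.3.3) on log2 values after adding 363, the 20th percentile of the intensities. Probe sets were kept if their mean exceeded 434, the 25th percentile of the means. It used lmFit, then eBayes with a trend in the mean, two-sided, and p-values were adjusted by Benjamini-Hochberg over 6555 probe sets with a threshold of 0.05. The code was tested on simulated data. Gene names came from the platform annotation (7006 probe sets with 1 gene, 308 with several and 1426 unnamed). In gene lists the probe set with the highest mean stood for a gene.

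The members, gene lists and most alternatives were chosen with earlier results of these data known. Named genes were every member and, for each list, the genes past the threshold or otherwise the 3 of smallest p. For cardiomyocyte, endothelial, erythroid and atrial markers these were Pln, Atp2a2 and Myh7, Vwf, Flt1 and Icam2, Alas2, Hbb and Slc4a1, and Pam, Myl4 and Myl7, none past the threshold, and Tpm2 and Acta2 were those of smooth muscle beside Actg2. The 5 genes most like the mean of the Col1a1, Col1a2 and Col3a1 probe sets were named too. Correlations used 100000 permutations within groups. Promoters came from RefSeq.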

Additional observations from a re-analysis of the deposited data

Results flagged for a closer look

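For 6 of the 30 sets of 6 arrays (15 probe sets in each of 2 groups), the highest or lowest array lay apart from the rest of its group by Dixon's test on the log2 scale, where chance flags about 1 in 20. Among all tested probe sets an exercised array lay apart for 4.3% and a sedentary one for 20.5%, against 2 and 4 of the 13 tested members. The value given is the gap to the nearest array divided by the range of the group, for a group of 6. Exercised 4 lay above the other exercised arrays for Col1a1 rc_AI231472_s_at (0.707) and for Col5a2 (0.699). Sedentary 24 lay below the other sedentary arrays for Col5a1 (0.766) and for Col1a2 (0.748). Sedentary 16 lay above for Col3a1 X70369_s_at (0.740), and sedentary 21 below for Col1a1 Z78279_at (0.718). The cause of these values was not tested.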

How the results depend on the processing

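No collagen or Lox probe set passed an adjusted p of 0.05 by limma under any of the 25 alternatives, and the lowest adjusted p was 0.118, for Col1a2 with array weights. Of the 13 differences 9 kept their sign under every alternative run for them. Pseudocount, filter, scaling and variance model reversed only Lox rc_AI234060_s_at, to 0.036 with array weights, and median scaling moved the median of all probe sets by 0.0081. Leaving out 1 array reversed 2 differences near 0, with ranges of -0.034 to 0.035 for Lox rc_AI234060_s_at and -0.076 to 0.068 for Col1a1 Z78279_at. It also reversed that of Col5a1, which was 0.27 with all arrays and ran from -0.026 (without sedentary 24) to 0.39. Without exercised 4 and 5 Col1a1 Z78279_at gave -0.053 and Z78279_g_at -0.031, without sedentary 16 and 17 Lox rc_AI234060_s_at gave 0.014, and without exercised 4 and sedentary 24, chosen after seeing the data, Col1a1 Z78279_at gave -0.040 and Col5a1 -0.064. The cause was not tested.

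The number of all probe sets past the threshold was 21 as reported, 32 without a filter, 50 with a mean above the 50th percentile, 42 without trend, 160 with array weights, 4 without exercised 4 and 5, 5 without sedentary 16 and 17 and 3 without exercised 4 and sedentary 24, and 3 to 37 with 1 array left out. Among these it was 35 without exercised 1, 4 without exercised 5, 8 without exercised 7, 12 without exercised 9, 37 without sedentary 13, 6 without sedentary 16, 13 without sedentary 21, 3 without sedentary 23 and 4 without sedentary 24. Of the collagen and Lox probe sets, 2 had an exact permutation p under 0.05, and 1 without exercised 4 and 5 or sedentary 16 and 17, 0 without exercised 4 and sedentary 24, and 1 to 3 with 1 array left out (1 without exercised 4, 5 or 7 or sedentary 21, 23 or 24, 3 without exercised 1, 8 or 9 or sedentary 16). The median difference of 0.18 ran from 0.087 (without exercised 4) and 0.092 (without sedentary 24) to 0.23 with 1 array left out, and was 0.037 without exercised 4 and 5 and 0.092 with no filter, over 15 probe sets. The correlation of Col3a1 and Col1a1 (0.902) was 0.67 to 0.948 with 1 array left out, 0.545 (permutation p = 0.141) without exercised 4 and 5 and 0.664 (0.0627) without exercised 4 and sedentary 24. No paired analysis was possible because the groups share no label numbers.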
